A study of Capsicum chinense and Capsicum frutescens with 8 samples.

Results

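The miRNA families miR7767, miR8155, miR6149 and miR6483 were followed through 8 small RNA libraries of pepper. They were taken as all entries with exactly these miR numbers in the 8 sheets of conserved miRNAs. This gave 4 of 1336 families, 7 of 2312 entry names and 43 of 5915 lines, 6 of them with 1 read. The members were chosen by the high shares of their reads in leaf, so values of leaf and of the other organs are described with no test of that contrast. Together they held 3779 of the listed reads, or 0.0569% of them. Samples were leaf, stem, flower buds and fruit of an accession of C. frutescens (Acc. 4) and of Bhut jolokia (C. chinense), a very pungent chilli, each species being represented by 1 genotype. All plants were grown in a glass house under long days, and leaves were fully expanded when taken. RNA of 3 biological replicates was pooled before sequencing, so each species and organ is 1 library, and fruit RNA came from several stages, pooled over 5 to 60 days post anthesis. The sheets hold miRNA entries only, so the organ labels could not be checked against marker genes. In pooled bulk RNA, fewer cells of a type and less RNA per cell cannot be told apart.

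Plant miRNAs are cut from hairpin precursors by Dicer-like enzymes and guide Argonaute proteins to matching transcripts. The prefix of an entry names a plant for which the sequence was catalogued, and a family can have entries from several plants. The prefixes here are those of Brachypodium distachyon, a grass (bdi-miR7767), papaya (cpa-miR8155), the rubber tree (hbr-miR6483), and potato and tobacco (stu-miR6149 and nta-miR6149a), which belong to the nightshade family like pepper. None of these 4 families is among the deeply conserved miRNAs of flowering plants, and no target is given for them in the sheets.

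The sheets print 1 sequence per entry and library, and how it was chosen is not given in the sources used here. The first set is shown because the entry that carries miR7767 was printed at up to 36 nt, longer than a mature plant miRNA. Such lengths were not particular to it. Entries printed over 24 nt held 84.9% to 98.9% of the listed reads of a library, and the longest had 36 nt in each. Capitals mark the 25 bases common to the printed sequences of all 8 libraries, and the lines read 5′ to 3′.
bdi-miR7767-5p, C. frutescens leaf: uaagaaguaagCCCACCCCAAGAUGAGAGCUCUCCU
bdi-miR7767-5p, C. frutescens fruit: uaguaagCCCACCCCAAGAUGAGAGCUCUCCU
bdi-miR7767-5p, C. chinense leaf: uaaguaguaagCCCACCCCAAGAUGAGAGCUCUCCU
bdi-miR7767-5p, C. chinense fruit: CCCACCCCAAGAUGAGAGCUCUCCU
In all 8 libraries the printed sequence ended at the same base, and it differed at its 5′ end, giving lengths of 25 to 36 nt. The sequence of C. frutescens leaf differed from that of C. chinense leaf by U5A, counted from 1 at the 5′ end. That of C. frutescens flower, also 36 nt, was the same as in C. chinense leaf. The C. frutescens stem and fruit sequences had U at that base too, so U5A did not separate the species. Whether these reads came from a miRNA hairpin or were fragments of another RNA, such as an organelle rRNA, was not tested, and every value of miR7767, its leaf share included, is given under that limit. The 3p entry had 1 read in leaf of C. frutescens, and 4 in stem and 1 in flower of C. chinense, in no other library.

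The second set is shown because miR8155 in its 26-nt form lies 1 base away from another entry, rgl-miR5139 (named from Rehmannia glutinosa), as printed in 6 of 8 libraries. Capitals mark bases that differ from the 26-nt form of miR8155.
cpa-miR8155, C. frutescens leaf: aggaucguaaccuggcucugauacca
cpa-miR8155, C. chinense leaf: aggaucguaaccuggcucugauacca
cpa-miR8155, C. chinense stem: uaaccugUcucugauaccaacuuu
rgl-miR5139, C. frutescens leaf: aucgAaaccuggcucugauacca
rgl-miR5139, C. chinense leaf: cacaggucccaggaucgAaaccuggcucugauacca
The 26-nt form was printed in leaf of both species and in stem and fruit of C. frutescens, and shorter pieces of it in the flower libraries. Every printed miR5139 sequence carried U8A relative to it, counted on the 26-nt form, and miR5139 also carried A4C and U5A in C. frutescens fruit and G15U in C. chinense fruit. miR8155 itself carried G15U in C. chinense stem, with 2 reads, and U5A, C6A, G7U and G15U in C. chinense fruit, with 8 reads. Reads of 2 entries this close could have been divided differently by another counting, so the level of miR8155 is uncertain. miR5139 is an entry often traced to tRNA or rRNA fragments, and whether the reads of miR5139 or miR8155 are fragments of a tRNA or rRNA was not tested. In all, 115 of the 5915 conserved lines shared a run of at least 12 bases with a printed miR8155 sequence, an entry counting once per library. They belonged to 9 other families, miR5139 among them, and the longest run was 18 bases.

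For miR6149, capitals mark the seed (bases 2 to 8), since the printed sequences of its stu-5p and nta entries began at a fixed 5′ end and those of all its entries were 21 to 24 nt long.
stu-miR6149-5p, C. frutescens leaf: uUGCAAACacaccugaaucgua
stu-miR6149-5p, C. chinense leaf: uUGCAAACacaccugaaucguauu
nta-miR6149a, C. frutescens leaf: uUCGAUACgcaccugaaucgccu
nta-miR6149a, C. chinense leaf: uUUGAUACgcaccugaaucgccg
stu-miR6149-3p, C. chinense leaf: aUCGAUUCagguuuguaugcaaac
The 5p and nta entries do not share a seed. Relative to its form in C. chinense fruit, the nta entry carried the change C3U, inside the seed, in the 4 libraries with 4 or fewer of its reads and not in the 4 with 17 or more. The 5p and 3p arms printed for C. chinense leaf can pair at 18 of 22 facing bases, G-U pairs included. The same reckoning for the arms of miR7767 gave 14 of 25 in C. frutescens leaf and 13 of 24 in C. chinense stem. The 3p sequences used here had 2 reads for miR6149, and 1 and 4 reads for miR7767. How many bases unrelated sequences would pair was not tested, so these counts do not tell whether either family comes from a hairpin.

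For miR6483, capitals mark the 16 bases common to all 8 libraries, in which its length ran from 19 to 35 nt and the ends varied on both sides.
hbr-miR6483, C. frutescens leaf: caauUUAUUGUAGAAAUUUUcgcgau
hbr-miR6483, C. chinense leaf: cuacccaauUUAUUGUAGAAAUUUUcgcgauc
The C. frutescens leaf form had a GC content of 26.9%, against 50% in the most-read forms of miR7767-5p and miR8155.

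The libraries held 246508 to 1412110 listed conserved reads. miR166 took 42.5% to 76.6% of them in C. frutescens and 63.7% to 93.9% in C. chinense, with the lowest C. chinense share in leaf. Values are given as RPM, the reads of a family per 1000000 listed conserved reads, and also per 1000000 reads other than miR166, since a large miR166 share lowers every other share. A list of 8 families, miR5139 among them, whose entries are often traced to tRNA or rRNA fragments held 107988 RPM in leaf of C. frutescens and 90833 to 99846 in its other organs. In C. chinense it held 158640 in leaf against 5605 to 26084 elsewhere. Without miR166 in the total it held 325643 in leaf of C. frutescens, below stem at 399968 and above flower at 173699 and fruit at 230105. On that total it held 436577 in leaf of C. chinense against 91419 to 240401 in its other organs. Most of the list's reads in leaf were those of 1 family, miR6300. It had 21867 of 26620 in C. frutescens and 115315 of 128794 in C. chinense. The part of the list in the results was not tested.

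miR7767 had its highest share in the leaf of both species, with or without miR166 in the total. On another scale, described below, miR7767 stood higher in flower than in leaf of C. frutescens. It was listed with 568 reads in leaf, 212 in stem, 465 in flower and 101 in fruit of C. frutescens, and with 1035 reads in leaf, 23 in stem, 13 in flower and 12 in fruit of C. chinense. In RPM these were 2304, 187, 1127 and 108 in C. frutescens and 1275, 16.3, 12.04 and 19.6 in C. chinense. Among all listed reads the flower of C. frutescens therefore stood close to the leaf of C. chinense, and their 95% counting intervals overlapped. The 3 non-leaf libraries of C. chinense also had overlapping intervals. The leaf share was 4.86 times the mean of the other 3 organs in C. frutescens and 79.9 times in C. chinense. In RPM without miR166 in the total, it had 6948 in leaf, 798 in stem, 1960 in flower and 273 in fruit of C. frutescens, and 3508 in leaf, 150.1 in stem, 196 in flower and 208 in fruit of C. chinense. The interval of C. frutescens flower (1786 to 2146) then lay below that of C. chinense leaf (3298 to 3728). On that total the leaf ratio was 6.88 in C. frutescens and 19.0 in C. chinense. With flower left out the ratio of all listed reads in C. frutescens was 15.6, with stem left out 3.73 and with fruit left out 3.51.

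miR8155 had shares of 329 RPM in leaf, 101 in stem, 136 in flower and 234 in fruit of C. frutescens, from 81, 114, 56 and 219 reads. In C. chinense it had 216 in leaf, 1.42 in stem, 2.78 in flower and 13.0 in fruit, from 175, 2, 3 and 8 reads. In C. frutescens all 4 organs held it within a few fold. The intervals of leaf and fruit overlapped, though leaf stood 1.41 times as high as fruit with an interval of 1.08 to 1.82. In C. chinense the leaf stood alone. The leaf share was 2.10 times the mean of the other organs in C. frutescens and 37.5 times in C. chinense. In RPM without miR166 in the total, miR8155 had 991 in leaf, 429 in stem, 236 in flower and 592 in fruit of C. frutescens, and 593 in leaf, 13.1 in stem, 45.3 in flower and 139 in fruit of C. chinense. The leaf ratio was then 2.36 in C. frutescens and 9.03 in C. chinense. On that total leaf stood 1.67 times as high as fruit in C. frutescens (interval 1.28 to 2.17). Without the fruit library the C. chinense ratio of all listed reads was 103, without stem 27.3 and without flower 29.8.

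The near-identical miR5139 was also highest in leaf in C. chinense, but not in C. frutescens, where it had 320 RPM in leaf, 1160 in stem and 1631 in flower. Without miR166 in the total its highest share in C. frutescens was in stem. In C. frutescens it had 79 reads in leaf, 1314 in stem, 673 in flower and 30 in fruit, and in C. chinense 1269 in leaf, 184 in stem, 7 in flower and 7 in fruit. Of the reads of both entries together, miR8155 took 50.6% in leaf of C. frutescens and 88.0% in its fruit, but 7.98% in its stem and 7.68% in its flower. In C. chinense it took 12.1% in leaf, 1.08% in stem, 30.0% in flower and 53.3% in fruit, the last 2 from 10 and 15 reads of both. Summed with miR5139, the leaf ratio of miR8155 was 0.591 in C. frutescens, so leaf lay below the mean of the other organs, where by itself it was 2.10. In C. chinense the sum had a leaf ratio of 32.3, against 37.5 for miR8155 by itself.

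**Figure D1:**
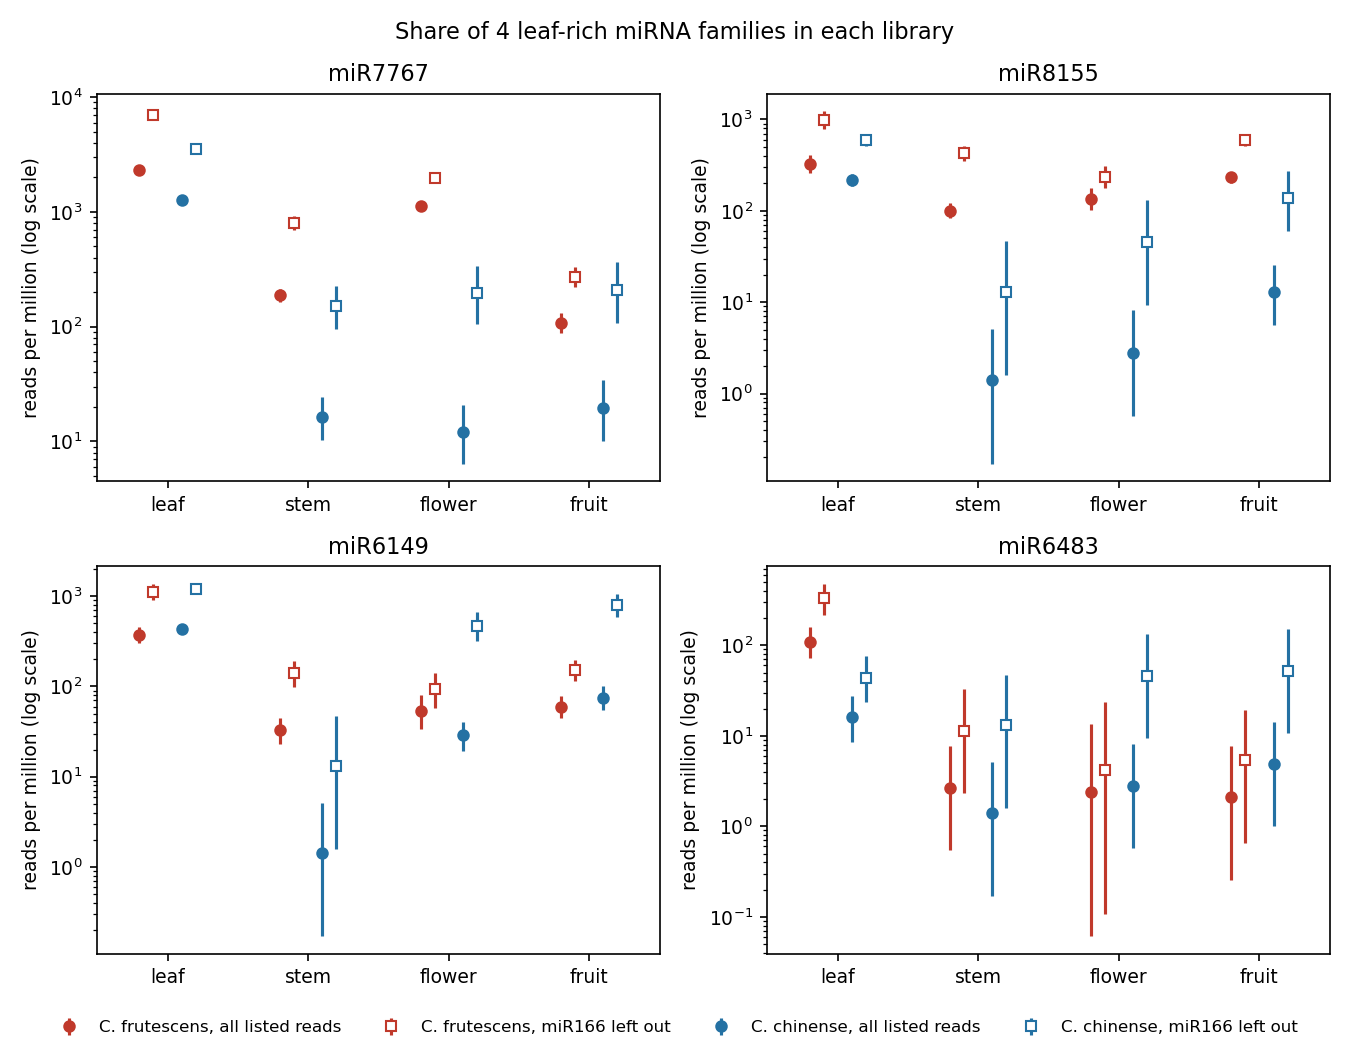
Reads per 1000000 (RPM, log axis) of each family by organ, for C. frutescens (red, left) and C. chinense (blue, right), with filled circles for shares of all listed reads and open squares for shares of reads other than miR166. Bars are exact 95% counting intervals of 1 library each. miR7767 reaches 2304 RPM in C. frutescens leaf and 1275 in C. chinense leaf.

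**Figure D2:**
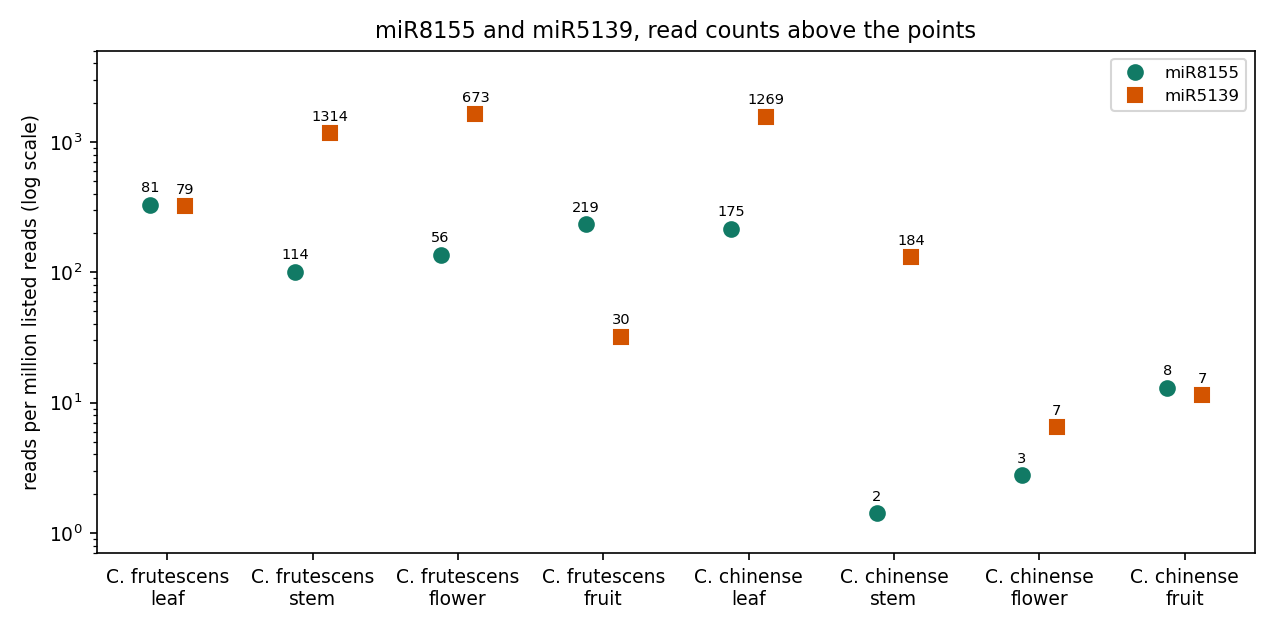
Reads per 1000000 listed reads (RPM, log axis) of miR8155 (circles) and miR5139 (squares) in each library, with the read counts above the points. miR8155 exceeds miR5139 in C. frutescens fruit, with 219 reads against 30, and lies far below it in C. frutescens stem and flower and in C. chinense leaf.

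miR6149 had 92 reads in leaf, 37 in stem, 22 in flower and 56 in fruit of C. frutescens, or 373, 32.7, 53.3 and 59.7 RPM. In C. chinense it had 352 reads in leaf, 2 in stem, 31 in flower and 46 in fruit, or 434, 1.42, 28.7 and 75.0 RPM. The leaf libraries of both species were the 2 highest and their intervals overlapped, while C. chinense stem was lower than every other library. The leaf share was 7.68 times the mean of the other organs in C. frutescens and 12.4 times in C. chinense. In RPM without miR166 in the total, it had 1125 in leaf, 139 in stem, 92.7 in flower and 151 in fruit of C. frutescens, and 1193 in leaf, 13.1 in stem, 468 in flower and 797 in fruit of C. chinense. The leaf ratio was then 8.81 in C. frutescens and 2.80 in C. chinense, where leaf stood 1.497 times as high as fruit (interval 1.10 to 2.08). Without the fruit library the ratio in C. chinense, of all listed reads, was 28.8, without stem 8.36 and without flower 11.4.

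The main entries behind these reads, stu-miR6149-5p and nta-miR6149a, had unlike shares from library to library. stu-miR6149-5p had 51 reads in leaf, 36 in stem, 5 in flower and 35 in fruit of C. frutescens, and 348 in leaf, 1 in stem, 27 in flower and 0 in fruit of C. chinense. It held 51 of the 92 reads in leaf of C. frutescens (55.4%, 95% Clopper-Pearson interval 44.7 to 65.8) and 348 of the 352 in leaf of C. chinense (98.9%, interval 97.1 to 99.7). The nta entry had 41 reads in leaf, 1 in stem, 17 in flower and 21 in fruit of C. frutescens, and 2 in leaf, 1 in stem, 4 in flower and 46 in fruit of C. chinense. All 46 reads of C. chinense fruit were its reads, and with 0 stu-miR6149-5p reads there the share of that entry could be up to 7.71%. As a share of listed reads the nta entry was 4.04 times higher in leaf than in flower, the next organ, in C. frutescens (interval 2.24 to 7.58). In C. chinense its leaf share was 0.0329 of the fruit share (interval 0.00386 to 0.126). stu-miR6149-5p stood in C. chinense at 429 RPM in leaf and 0.708 in stem, and the leaf ratio of the nta entry alone was 0.0931. The intervals cover counting error only. The 3p arm was listed in C. chinense leaf only, with 2 reads.

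**Figure D3:**
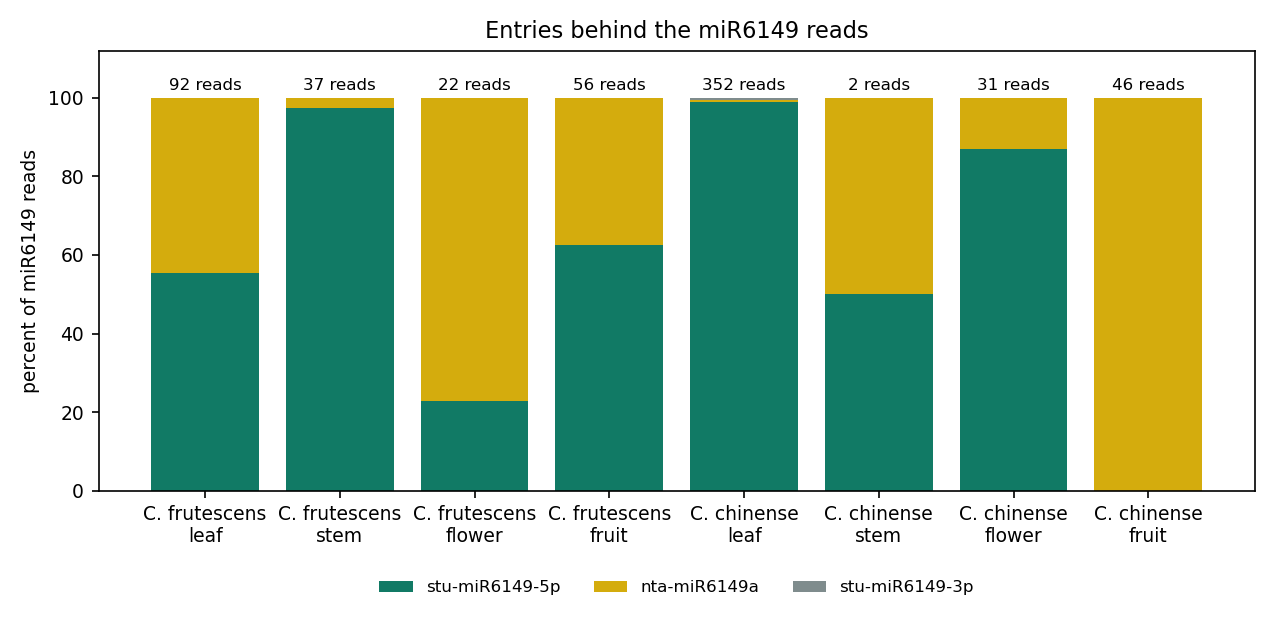
Percent of miR6149 reads from stu-miR6149-5p, nta-miR6149a and stu-miR6149-3p in each library, with the total reads above each bar. stu-miR6149-5p makes up 98.9% of the reads in C. chinense leaf and 55.4% in C. frutescens leaf, and none of the 46 in C. chinense fruit.

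miR6483 was read few times outside leaf. It had 27 reads in leaf, 3 in stem, 1 in flower and 2 in fruit of C. frutescens, and 13 in leaf, 2 in stem, 3 in flower and 3 in fruit of C. chinense. In RPM these were 110, 2.65, 2.42 and 2.13 in C. frutescens and 16.0, 1.42, 2.78 and 4.89 in C. chinense. The leaf of C. frutescens stood above every other library, and the intervals of the other 7 overlapped with their neighbours in the order. The leaf share was 45.6 times the mean of the other organs in C. frutescens and 5.29 times in C. chinense. Over fruit, the next organ in C. chinense, it was 3.27 times as high, with an interval of 0.900 to 17.9, so a difference between these 2 libraries was not detectable at this depth. In RPM without miR166 in the total, C. frutescens had 330.3 in leaf, 11.3 in stem, 4.21 in flower and 5.40 in fruit. On that total the leaf of C. chinense, at 44.1, lay below its fruit at 52.0 and flower at 45.3 and above its stem at 13.1, and the leaf ratio there was 1.20.

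How far the leaf stood out depended on the total. Of 71 families with at least 10 reads in at least 2 libraries, 13 (18.3%) had their highest share in leaf in both species, and all 4 members were among them. In C. frutescens alone 18 families (25.4%) did, and in C. chinense alone 34 (47.9%). miR6483 passed this filter only through its 2 leaf libraries. Since the members were chosen for leaf, this count is a description. With miR166 out of the total 4 families (5.63%) did so, miR7767, miR8155 and miR6149 among them. With totals scaled by TMM, which sets a library's scale from most families at once, 3 families (4.23%) did, miR6149 and miR6483 among them. On that scale miR7767 stood at 1119 RPM in leaf and 1826 in flower of C. frutescens, and miR8155 at 160 in leaf and 220 in flower. miR6149 was the 1 member highest in leaf in both species on all 3 scales. In C. chinense, miR7767, miR8155 and miR6149 were highest in leaf on each scale. The median leaf ratio of the tested families with reads on both sides was 0.854 in C. frutescens and 1.36 in C. chinense. Without miR166 it was 0.897 in C. frutescens and 0.332 in C. chinense.

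**Figure D4:**
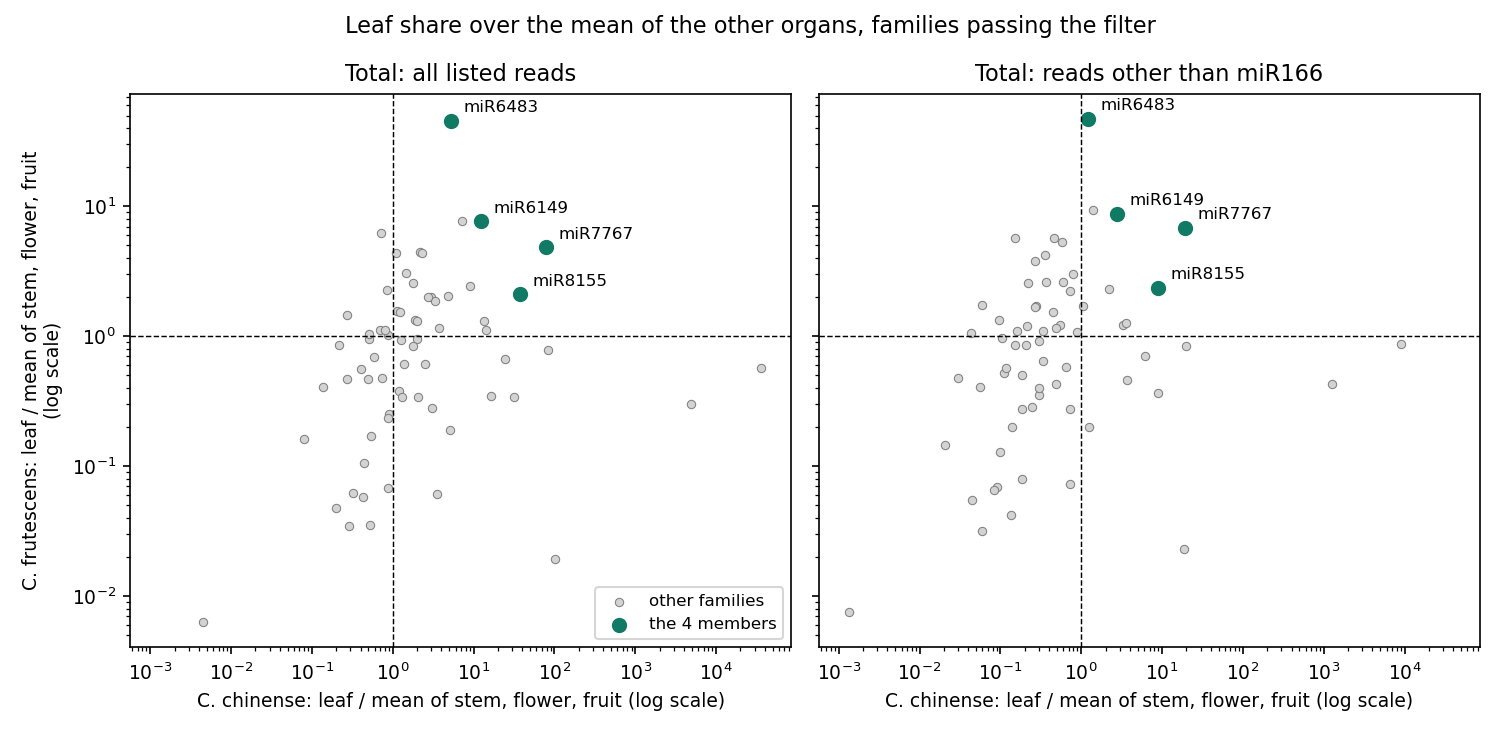
Leaf share over the mean share of stem, flower and fruit (log axes), C. frutescens on the vertical and C. chinense on the horizontal axis, for the 67 of 71 families that passed the filter with a ratio in both species. The members (green) lie right of and above 1 in both panels. In C. chinense miR6483 lies at 5.29 with miR166 in the total and at 1.20 without it.

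Among 21 deeply conserved families, such as miR156 and miR172, all of which passed the filter, 1 (miR169) had its highest share in leaf in both species, and their median leaf ratios were 0.582 in C. frutescens and 0.863 in C. chinense. Among the 8 families often traced to fragments, 2 (miR6300 and miR8175) did, with median ratios of 1.01 in C. frutescens and 3.24 in C. chinense. Without miR166 in the total no family of either list did. By the root mean square difference of centred log2 shares over the 8 libraries, after adding 1 RPM, the families most like miR7767 of 67 others were miR5077 (1.55), miR4376 (1.61) and miR168 (1.67). For miR8155 these were miR168 (0.87), which targets the Argonaute gene AGO1, miR6300 (1.37) and miR159 (1.48). miR6149 was nearest to miR169 (1.34), miR5368 (1.47) and miR4995 (1.49), and miR6483 to miR4995 (1.06), miR8175 (1.22) and miR7121 (1.26). Between the members themselves the difference ran from 1.37, for miR7767 and miR8155, to 2.30, for miR8155 and miR6483.

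Set against C. chinense, miR7767 and miR8155 had the higher share in C. frutescens in all 4 organs, as did 19 of the 71 tested families (26.8%). Without miR166 in the total 4 families did (5.63%), and both were among them. The ratio of miR7767, C. frutescens over C. chinense, was 1.81 in leaf, 11.5 in stem, 93.6 in flower and 5.51 in fruit. That of miR8155 was 1.52 in leaf, 71.1 in stem, 48.8 in flower and 17.9 in fruit. The last 3 rest on 2, 3 and 8 reads in C. chinense, and the interval in stem ran from 19.2 to 594. Among all listed reads the leaf ratios were thus the lowest of the 4 for both. Without miR166 the ratio of miR7767 was 1.98 in leaf, 5.32 in stem, 9.98 in flower and 1.31 in fruit, so fruit was then lowest, with an interval of 0.719 to 2.62. That of miR8155 was 1.67 in leaf, 32.9 in stem, 5.21 in flower and 4.27 in fruit.

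In a model of organ plus species over the whole table, the log2 fold change of C. frutescens over C. chinense was 2.21 (SE 1.28) for miR7767 and 3.27 (SE 1.16) for miR8155, and in edgeR neither passed at 0.05 (adjusted p = 0.525 and 0.213). In this test 1 family (1.41%), no member, passed, and 0 (0%) passed as higher in C. frutescens, while 8 had an unadjusted p under 0.05. In DESeq2 both passed, miR7767 at 2.22 (SE 0.819, adjusted p = 0.0377) and miR8155 at 3.13 (SE 0.847, adjusted p = 0.00224), as 2 of 7 families (9.86% of those tested) called higher in C. frutescens. Without C. frutescens fruit miR8155 also passed in edgeR (3.61, adjusted p = 0.0249). With any other single library left out it did not pass in edgeR (adjusted p = 0.0556 to 0.670). Without C. chinense flower the value of miR7767 was 0.74 and that of miR8155 1.99. The error of this model is the variation of the species difference over organs, with 1 library each. The median log2 fold change of all tested families was 0.20 with TMM, 0.07 with DESeq2 size factors and 0.90 with total reads.

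For miR6149 the ratio of C. frutescens over C. chinense was 0.861 in leaf (interval 0.677 to 1.09) and 0.797 in fruit (interval 0.530 to 1.20). In flower the ratio was 1.86 (interval 1.02 to 3.31). In stem the ratio was 23.1 (interval 5.95 to 198), from 37 reads against 2 in C. chinense. Without miR166 in the total it was 0.943 in leaf and 10.7 in stem, and in flower it lay on the other side of 1, at 0.198 (interval 0.109 to 0.353), with fruit at 0.190 (interval 0.126 to 0.287). For miR6483 it was 6.84 in leaf (interval 3.41 to 14.4), 1.87 in stem, 0.872 in flower and 0.436 in fruit, the last 3 with intervals that include 1. Without miR166 it was 7.50 in leaf, 0.865 in stem, 0.0930 in flower (interval 0.00177 to 1.16) and 0.104 in fruit (interval 0.00868 to 0.907), so that of the last 3 the fruit interval excluded 1. The fitted log2 fold changes were 0.20 (SE 0.989) for miR6149 and 0.0049 for miR6483, and in edgeR neither passed (adjusted p = 0.980 and 0.998). Both were negative with DESeq2, at -0.0047 for miR6149 and -0.13 for miR6483.

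**Figure D5:**
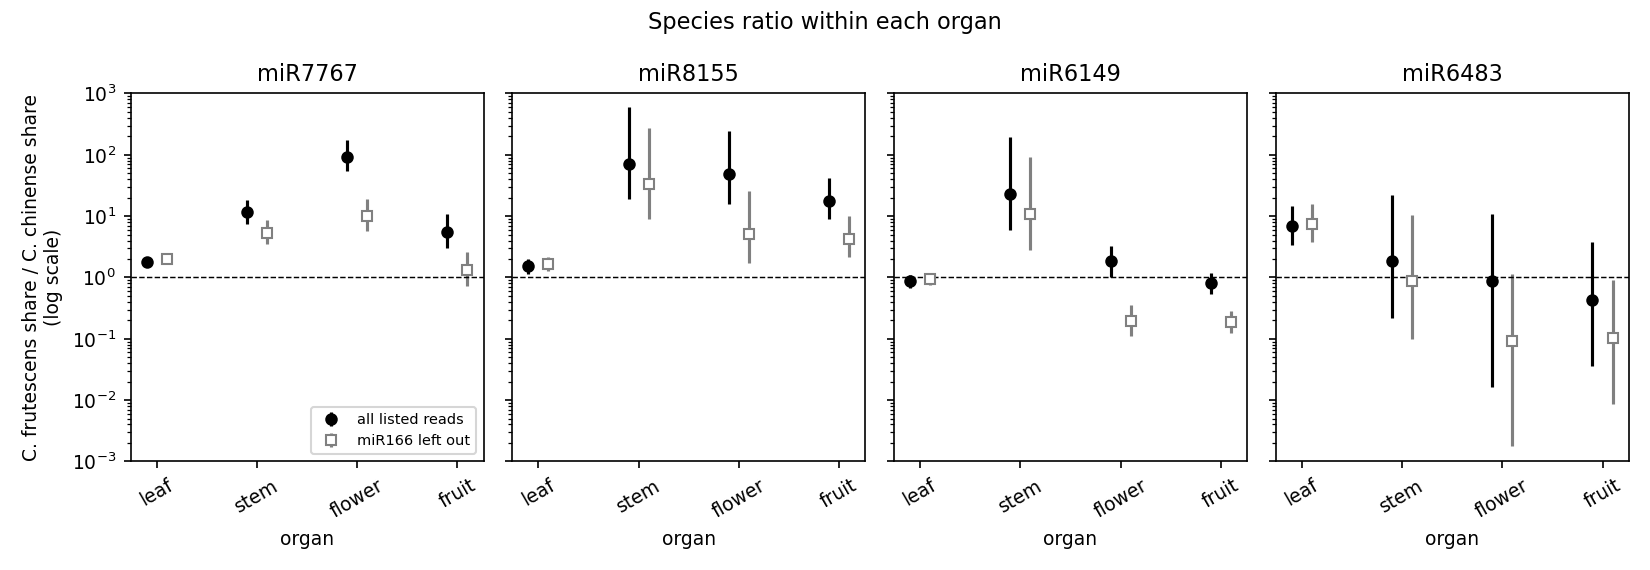
Ratio of the share in C. frutescens to that in C. chinense (log axis) by organ, with circles for shares of all listed reads and squares for shares of reads other than miR166. Bars are 95% counting intervals. miR7767 and miR8155 lie above the dashed line at 1 in all 4 organs, lowest in leaf among all listed reads.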

How the data were processed

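The authors deposited raw read counts per miRNA entry, per the file headers, in 8 sheets of conserved entries and 8 of predicted miRNAs. Per the labels' protocols, total RNA came from NucleoSpin columns, and TruSeq libraries of small RNA were run on a Genome Analyser II. Trimming, aligner, allowed mismatches and miRNA database release were not given in sources used here. In 2 sheets 1 line was empty in the copies used. Reads were summed by miR number in pandas 2.3.3 (numpy 2.4.6, Python 3.11.15), and an unlisted entry entered as 0. Intervals are exact (Clopper-Pearson, or conditional binomial for ratios; scipy 1.17.1) at 95% and cover counting error only, since reads carry no molecular identifiers. For the species test, edgeR 4.0.16 (R 4.3.3) was run with its quasi-likelihood method, TMM scaling, a filter of 10 reads in 2 libraries and the model organ plus species (3 residual and 7.10 prior degrees of freedom), adjusted by Benjamini-Hochberg over 71 families at 0.05. Standard errors were computed from the F statistics. On simulated counts for these 71 families it called 9.00% of those changed 4-fold and 38.0% of those changed 16-fold. DESeq2 1.42.0 was an alternative, and plots used matplotlib 3.10.9. The named families are the members, the 3 families most like each, 2 lists and miR166. miR5139 was added after its sequence was seen. Members and lists were chosen with earlier results of these data known.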

Additional observations from a re-analysis of the deposited data

Results flagged for a closer look

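In reads other than miR166, the ratio of miR6149 in C. frutescens over C. chinense was 0.198 in flower and 0.190 in fruit, while in stem it was 10.7, the other direction. The stem ratio rests on 37 reads against 2 in C. chinense, with an interval of 2.75 to 91.4. Among all listed reads flower stood at 1.86 and fruit at 0.797. On the total without miR166 miR6483 stood at 0.104 in fruit, from 2 and 3 reads, and at 7.50 in leaf. The entry nta-miR6149a had a leaf share 4.04 times that of the highest other organ in C. frutescens and 0.0329 times in C. chinense, again opposite directions. These differences between organs or species were not tested, since each rests on 1 library per group.

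The predicted miRNA sheets, which enter no comparison, hold sequences close to miR7767-5p. Those in C. frutescens stem lay above a fixed floor of 3 reads. In C. frutescens stem 1 predicted sequence with 5 reads matched bases 14 to 36 of the form printed for C. chinense leaf with 1 difference, A28U. Another with 4 reads, also in C. frutescens stem, had 4 differences over 21 bases. The same sequence had 3 reads in C. frutescens leaf, which is not above that floor.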

How the results depend on the processing

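The edgeR species test called 1 of 71 families, and DESeq2 called 12 of 71. With edgeR, 3 of 1336 were called without a filter, 2 of 50 with a filter of 50 reads and 3 of 68 without the leaf pair. When each library was left out in turn, edgeR called 0 to 4 of the 64 to 71 families tested. Families highest in leaf in both species numbered 13 of 71, with 4 of 71 without miR166 in the total and 3 of 71 with TMM. They numbered 59 of 1336 without a filter and 8 of 50 with a filter of 50 reads. The species value of miR6149 turned negative without miR166 (-0.24), without the organ block (-0.52) and with DESeq2 (-0.0047), and ran from -0.85 to 1.08 when libraries were left out. That of miR6483 did so without miR166 (-0.34), with DESeq2 (-0.13) or its size factors in edgeR (-0.11), and ran from -0.41 to 1.16. The values of miR7767 and miR8155 stayed positive under all 18 alternatives each, at 0.74 to 3.20 and 1.70 to 4.23. The leaf ratios stayed above 1 under all alternatives run except with miR5139 added to miR8155 in C. frutescens (0.591) and for nta-miR6149a alone in C. chinense (0.0931), both chosen after seeing the data. The cause was not tested. Since the members were chosen for leaf, ratios above 1 are a description. A ratio above 1 to the mean of the other organs also does not make leaf the highest organ. With TMM miR7767 and miR8155 stood higher in flower than in leaf of C. frutescens. Without miR166 in the total miR6483 stood higher in fruit than in leaf of C. chinense. No sequence was listed more than once in a sheet, so counting distinct sequences once changed no value. Ratios by printed length could not be had where an organ had no such reads, nor species values of miR6483 where a left-out leaf library or the filter of 50 reads removed it. The labels give no replicate numbers, so the species were paired by organ, and without that organ block 1 family was called. Depth limits miR6483 most, with 1 to 3 reads in each non-leaf library.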
